A study of Mus musculus with 6 samples.

Results

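The transcription factors that set up and maintain the identity of the liver were examined in mouse liver through 8 genes, Foxa1, Foxa2, Foxa3, Cebpa, Cebpb, Onecut1, Prox1 and Gata4. They were read by every probe that is not a control and whose gene symbol in the deposited table is 1 of these names, which gave 10 probes of 55681 for 8 gene symbols of 24239. The samples were livers of male B6C3F1 mice, hybrids of the C57BL/6 and C3H strains, listed as 7 weeks of age and with no transgene or deletion named. In the control group, 3 mice received corn oil by mouth for 5 days, and in the other group 3 mice received trichloroethylene (TCE), a chlorinated solvent, at a daily 1000 mg per kg of body weight, dissolved in that oil, over the same 5 days. RNA of each liver was hybridized to its own 1-colour array and no animals were pooled. The comparison asks how the livers of TCE-treated mice differed from those of control mice in the mRNA of these factors.

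The FOXA proteins (forkhead box A, once called hepatocyte nuclear factor 3) are pioneer factors. They bind DNA wrapped in nucleosomes and open regulatory regions of liver genes for other factors. C/EBP-alpha (Cebpa) and C/EBP-beta (Cebpb) are leucine zipper proteins that bind the same DNA motif: the former is linked to metabolic genes and a resting state of the hepatocyte, and the latter to the acute phase response and regeneration. HNF6 (Onecut1) combines a cut domain with a homeodomain and acts in the development of hepatocytes and bile ducts, PROX1 is a homeodomain protein needed for the growth of the liver bud and also marks lymphatic endothelium, and GATA4 is a zinc finger protein that acts in the early liver bud and in sinusoidal endothelial cells of the adult.

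All 10 probes were well above background on all 6 arrays. The mean log2 signal after TCE was lower for 7 of the 8 genes and higher for Cebpb, while 46.9% of the 13284 tested genes were lower. The median log2 fold change of the 8 genes was -0.54, against 0.02 over all tested genes. One gene, Foxa2, was past the threshold, which asked for a fold of 2 or more and a limma p, adjusted by Benjamini-Hochberg, of at most 0.05, which 1.73% of tested genes reached. At an unadjusted p of 0.05 or less there were 4 genes lower (Foxa2, Foxa3, Cebpa and Gata4) and 1 higher (Cebpb), and these are the same 5 genes whose groups did not overlap. Over all tested genes, 7.11% were lower and 12% higher at that unadjusted p, and in 10.8% and 17.1% the groups did not overlap with TCE lower or higher. The 8 genes were chosen by name and with earlier results of these data known, so their counts describe the set and are not a test of it. In whole liver, fewer cells of a type and less RNA per cell cannot be told apart.

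**Figure D1:**
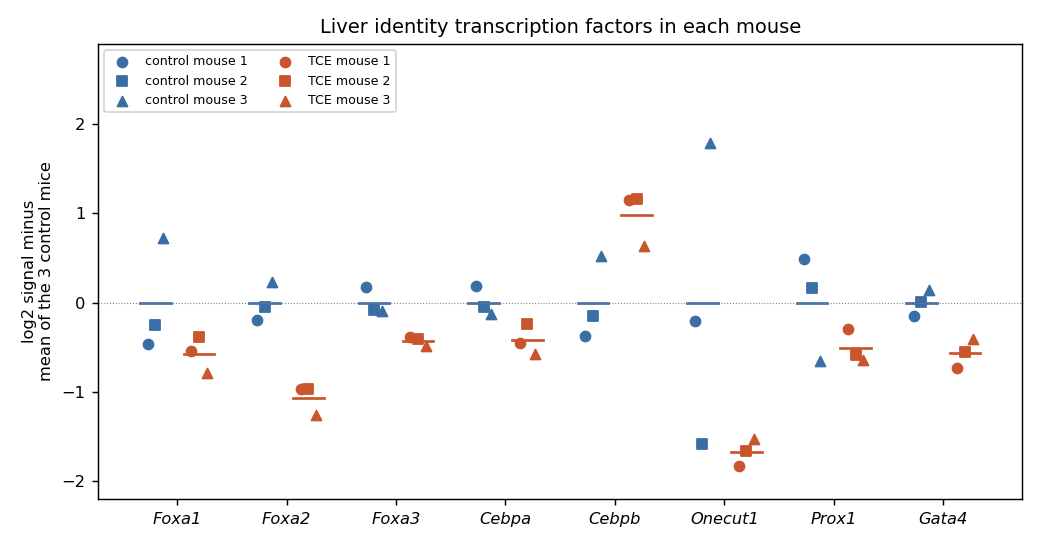
Each point is 1 mouse, and the vertical axis gives the log2 signal of the leading probe minus the mean of the 3 control mice (bars, group means). The TCE mice lay below all control mice for Foxa2, Foxa3, Cebpa and Gata4 and above them for Cebpb, and the control mice were spread widest for Onecut1.

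Taken mouse by mouse, the median deviation of the 8 genes from their control means was -0.17, -0.07 and 0.19 in control mice 1, 2 and 3. It was -0.50, -0.48 and -0.61 in TCE mice 1, 2 and 3. Every TCE mouse was therefore below every control mouse in this median. The arrays held 23537 to 24965 probes well above background, no spot was saturated, and pairs of arrays correlated at 0.987 to 0.99 within the controls, 0.978 to 0.987 within TCE and 0.971 to 0.982 between groups. Control mouse 1 was alone on slide 1, and the other 5 arrays shared slide 2, so values within slide 2 leave out control mouse 1. Within slide 2, 5 factors were again at an unadjusted p of 0.05 or less, but Foxa1 was now among them and Cebpa was not.

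Foxa2 was the factor with the clearest difference. It is represented by 2 probes at the 3′ end of the gene that share 5 bases. They are shown because both carry the result, as their first 30 of 60 bases, with mm9 positions of the whole probe on the minus strand of chromosome 2.
Foxa2 leading probe (chr2:147868669-147868728): cgggtctgatttaatttatggtttctgcgt
Foxa2 second probe (chr2:147868614-147868673): tgttctggctagaatggccagaattccaca

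The log2 signal of the leading Foxa2 probe was 12.23, 12.37 and 12.65 in control mice 1, 2 and 3. It was 11.45, 11.45 and 11.15 in TCE mice 1, 2 and 3. The groups did not overlap, and the spread within each was small beside the gap between them. The mean fell from 12.41 ± 0.21 (SD, n = 3) to 11.35 ± 0.17 (n = 3), which is -1.07 ± 0.16 (SE) as a log2 fold change and 2.09-fold lower (limma adjusted p = 0.0319). The second probe read 9.93, 9.95 and 10.36 in control mice and 9.13, 9.07 and 8.61 in TCE mice. Its groups were apart in the same way and its log2 fold change was -1.14 ± 0.20 (SE, limma adjusted p = 0.0472). Over the 6 mice the 2 probes correlated at r = 0.993, and since they lie side by side in 1 transcript they are not independent measurements. Of 13284 tested genes, 221 had a lower log2 fold change than Foxa2. Leaving out any 1 mouse kept the log2 fold change between -1.16 and -0.95 but took the adjusted p to between 0.0704 and 0.127. Within slide 2 it was -1.16 (limma adjusted p = 0.0704), and the call was also lost with no filter on dim probes (adjusted p = 0.113) and with no scaling between arrays (adjusted p = 0.179).

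The other FOXA genes had smaller differences. Foxa3, whose product acts later than its relatives and is abundant in the adult hepatocyte, read 11.62, 11.36 and 11.35 in control mice and 11.06, 11.04 and 10.95 in TCE mice (chr7:19599053-19599112, mm9, minus strand). The groups did not overlap, with a mean of 11.44 ± 0.15 in controls and 11.02 ± 0.05 in TCE mice (SD, n = 3 each). The log2 fold change was -0.43 ± 0.12 (SE), unadjusted p = 0.0119, and limma adjusted p = 0.150. Foxa1, which overlaps in function with Foxa2 during liver specification, read 10.53, 10.74 and 11.72 in control mice and 10.45, 10.61 and 10.21 in TCE mice (chr12:58641764-58641823, mm9, minus strand). Here the groups overlapped, because control mouse 1 lay within the range of the TCE mice. The log2 fold change was -0.57 with a 95% interval from -1.34 to 0.20 (limma adjusted p = 0.409), and it was -0.21 without control mouse 3, the highest of the 6. Within slide 2 the groups did not overlap and it was -0.81 (unadjusted p = 0.0488, limma adjusted p = 0.323).

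Whether the relatives moved unequally was tested on the difference of their log2 signals within each mouse, over 4 pairs. Foxa2 minus Foxa3 was 0.64 lower in TCE mice on the log2 scale, a change of -0.64, and no mouse of 1 group lay within the other. The exact permutation test (two-sided) gave p = 0.1, which is the smallest that 3 against 3 mice allow, and 0.2 after adjustment over the 4 pairs. Foxa1 minus Foxa2 changed by 0.49 (exact permutation p = 0.3, adjusted 0.4) and Foxa1 minus Foxa3 by -0.14 (exact permutation p = 0.9, adjusted 0.9), with groups that overlapped in both.

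The upstream sequence of Foxa2 is shown because this gene carried the call. Upstream windows of 250 bases, taken from RefSeq on GRCm38.p6, were found for 7 of the 8 genes, with 10 start sites in all. They were searched for core motifs, with shares taken over all 32851 windows of that length. The HNF6 core, ATTGAT on either strand, was in 6.72% of all windows, and the FOXA core, TGTTTAC on either strand, was in 3.17%. The C/EBP core, spelled TTGCNNAA and searched on both strands, was in 9.56%. The GATA core, read as AGATAA on both strands, was in 9.99%. The TATA box, read as TATAAA on the strand of the gene alone, was in 7.59%. None of the 10 windows held more than 1 of these motifs. The window before the most distal of the 3 Foxa2 starts held the HNF6 letters from base -213 and that of Foxa1 held the FOXA letters, on the reverse strand, from base -141. Both windows are on the minus strand and are written 5′ to 3′ along the gene, with the motif in capitals.
Foxa2 (chr2:148046970-148047219): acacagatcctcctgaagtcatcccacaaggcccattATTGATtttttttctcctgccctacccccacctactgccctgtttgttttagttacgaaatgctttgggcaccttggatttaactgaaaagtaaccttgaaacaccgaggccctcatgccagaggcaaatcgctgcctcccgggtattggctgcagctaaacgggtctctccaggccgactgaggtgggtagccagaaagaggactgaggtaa
Foxa1 (chr12:57546112-57546361): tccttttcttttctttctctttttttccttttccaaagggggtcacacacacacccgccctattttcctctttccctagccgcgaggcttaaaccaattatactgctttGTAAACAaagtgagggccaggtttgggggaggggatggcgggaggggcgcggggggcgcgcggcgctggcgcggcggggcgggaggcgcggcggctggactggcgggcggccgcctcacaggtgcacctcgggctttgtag
A match is a run of letters in this window and not a measured binding site. Another Foxa2 start had the GATA letters from base -183, Foxa3 and Cebpa had the TATA letters from bases -36 and -30, and the windows of Cebpb, Onecut1 and Prox1 held none of the 5 motifs.

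The C/EBP genes had differences of opposite sign. Cebpa read 13.24, 13.00 and 12.93 in control mice and 12.61, 12.82 and 12.48 in TCE mice (chr7:35906517-35906576, mm9, plus strand). The groups did not overlap, though the lowest control lay only 0.103 above the highest TCE mouse. Its mean was 13.06 ± 0.16 in controls and 12.64 ± 0.17 in TCE mice (SD, n = 3 each), which is a difference of -0.42 ± 0.15 (SE, unadjusted p = 0.0268, limma adjusted p = 0.215). Within slide 2 it was -0.33 (unadjusted p = 0.0855).

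Cebpb read 12.96, 13.18 and 13.85 in control mice and 14.49, 14.50 and 13.97 in TCE mice (chr2:167515828-167515887, mm9, plus strand). All TCE mice were above all control mice, and TCE mouse 3 was 0.113 above control mouse 3. The mean was 13.33 ± 0.46 in controls and 14.32 ± 0.30 in TCE mice (SD, n = 3 each). The difference of 0.98 (SE 0.27), or 1.98-fold, was just under the fold limit (unadjusted p = 0.00983, limma adjusted p = 0.140). Within slide 2 it was 0.80, and without control mouse 3 it was 1.24.

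Cebpa minus Cebpb within a mouse was lower in all TCE mice than in all control mice and changed by -1.40 on the log2 scale (exact permutation p = 0.1, the smallest possible here, and 0.2 after adjustment over the 4 pairs). This was the largest change among the 4 pairs compared. Every TCE mouse was already below all controls for Cebpa and above them for Cebpb. The separation and the exact permutation p of this pair were therefore fixed by the single genes and add no support.

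**Figure D2:**
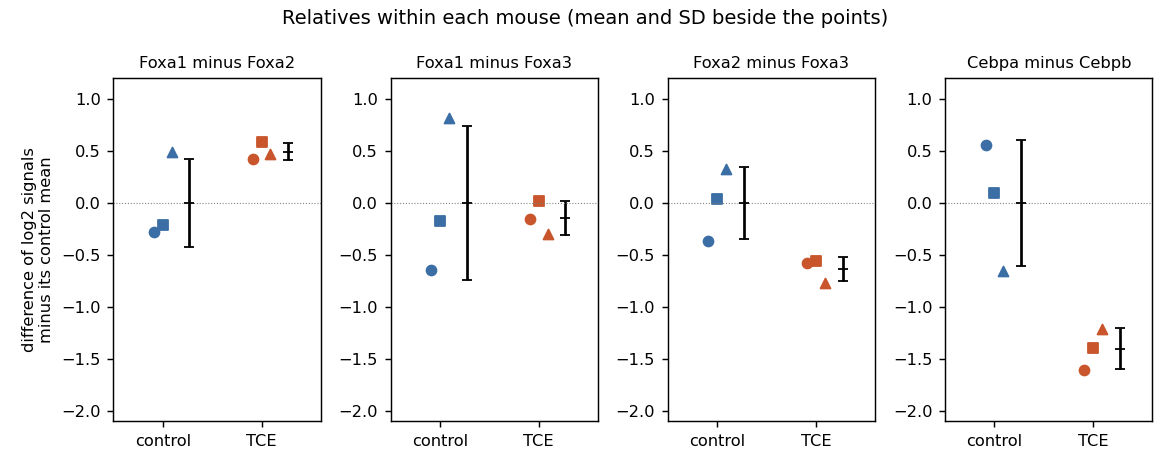
Each panel is 1 pair of related genes, and each point is the difference of their log2 signals in 1 mouse minus the control mean of that difference (bars, mean and SD of 3 mice). TCE mice lay apart from control mice for Foxa2 minus Foxa3 and for Cebpa minus Cebpb, which changed by -0.64 and -1.40. For Cebpa minus Cebpb this follows from the single genes, which differed in opposite directions without overlap.

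Onecut1 had the largest mean difference of the 8 genes and the widest spread among the control mice. Its 2 probes lie 26.5 kb apart on the plus strand of chromosome 9. They are shown, as their first 30 of 60 bases, because they read different parts of the gene. Both read the same RNA on the same arrays, so they are not independent measurements.
Onecut1 leading probe (chr9:74737402-74737461): atgagggaggaagaaccacggactagtacc
Onecut1 second probe (chr9:74710921-74710980): cttcggtgaccggcgcgcaggtcagcaatg

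The leading Onecut1 probe read 12.10, 10.73 and 14.10 in control mice and 10.48, 10.64 and 10.78 in TCE mice. Control mice 1 and 3 were above all TCE mice, and control mouse 2 lay among them. Between the lowest and highest control mouse the signal differed 10.4-fold, against 1.23-fold among the TCE mice. The control SD of 1.70 was at percentile 99.9 of all tested genes, where the median control SD was 0.15. The second probe read 6.89, 5.41 and 9.08 in control mice and 5.65, 5.30 and 5.09 in TCE mice, with the same order of the controls. Across the 6 mice the 2 probes correlated at r = 0.983. Neither passed the test: the log2 fold changes were -1.68 with a 95% interval from -3.56 to 0.21 (limma adjusted p = 0.330) and -1.78 with an interval from -3.85 to 0.29 (limma adjusted p = 0.344). Single mice set the size of this difference, since the leading probe gave -0.78 without control mouse 3 and -2.47 without control mouse 2. With an alternative background correction the leading probe gave -1.65 and the second probe -1.04.

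**Figure D3:**
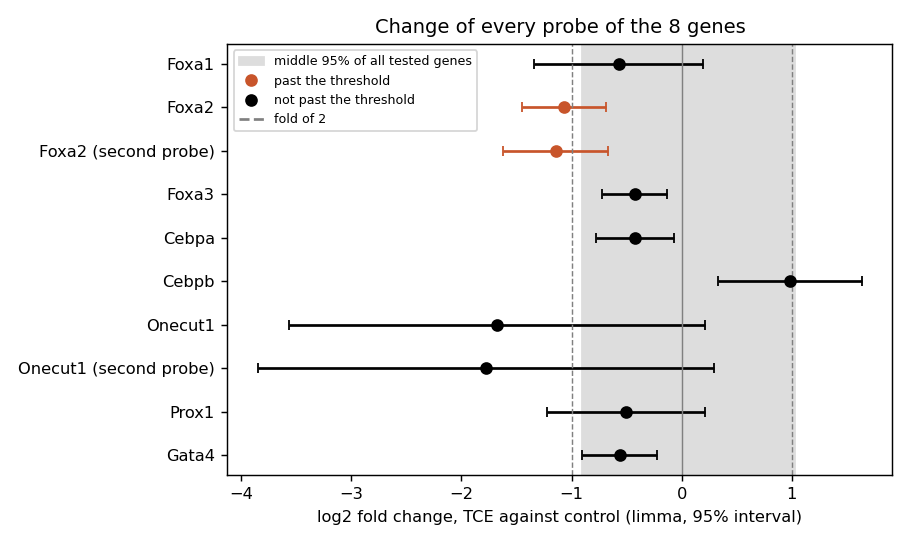
The horizontal axis gives the log2 fold change of each of the 10 probes, TCE against control, with its 95% interval from limma, dashed lines at a fold of 2 and the middle 95% of all tested genes in grey. Both Foxa2 probes were past the threshold, and the intervals of both Onecut1 probes were the widest and crossed 0.

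Gata4 read 8.66, 8.82 and 8.96 in control mice and 8.09, 8.26 and 8.41 in TCE mice (chr14:63817858-63817917, mm9, minus strand). The groups did not overlap, with means of 8.81 ± 0.15 and 8.25 ± 0.16 (SD, n = 3 each). Its log2 fold change was -0.56 ± 0.14 (SE, unadjusted p = 0.00621, limma adjusted p = 0.115).

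Prox1 read 9.20, 8.87 and 8.07 in control mice and 8.42, 8.13 and 8.07 in TCE mice (chr1:191945785-191945844, mm9, minus strand). Control mice 1 and 2 were above all TCE mice, while control mouse 3, the mouse with the highest Foxa1 and Onecut1 signals, was level with the lowest TCE mouse. The log2 fold change was -0.51 with a 95% interval from -1.22 to 0.21 (limma adjusted p = 0.430). It was -0.83 without control mouse 3 and -0.26 within slide 2.

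Of the 25 tested genes for other transcription factors of the hepatocyte, 16 were lower and 9 higher, with a median log2 fold change of -0.18. The 1 gene past the threshold was Foxm1, a forkhead factor of dividing cells, which rose from 4.88, 4.75 and 4.88 in control mice to 6.06, 7.03 and 6.71 in TCE mice (log2 fold change 1.76, SE 0.25, limma adjusted p = 0.0282) and was above background on 2 of the 3 control arrays. Foxm1 entered the test only through the TCE arrays, where it was high, and its control signals were close to background. The size of its rise is therefore uncertain. Its call was lost without any 1 mouse other than TCE mouse 1 (limma adjusted p up to 0.122). At an unadjusted p of 0.05 or less, 5 were lower and 4 higher, Foxm1 included, against 7.11% and 12% of all tested genes. Among them were Cebpd, another C/EBP gene of the acute phase response, at 1.11 (limma adjusted p = 0.191), Hhex, a homeobox gene of the early liver bud, at -0.81 (limma adjusted p = 0.267), and Gata6, a relative of Gata4, at 0.73 (limma adjusted p = 0.150). Hnf4a, a nuclear receptor central to the hepatocyte network, had a log2 fold change of 0.09 with overlapping groups (limma adjusted p = 0.759).

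Genes known as FOXA targets were split, with 5 of 11 tested lower and 6 higher and a median of 0.14. Igfbp1, a secreted binding protein of insulin-like growth factors, was the 1 past the threshold. It rose from 13.55, 13.10 and 13.23 in control mice to 16.17, 14.99 and 15.26 in TCE mice, or by 2.18 ± 0.32 (SE, limma adjusted p = 0.0301). That call was lost without any 1 control mouse or TCE mouse 3 (limma adjusted p up to 0.126). The apolipoprotein genes Apoa1 and Apob were at -0.31 and -0.37 and the tyrosine-degrading Tat at 0.36, each at an unadjusted p of 0.05 or less. The lists share genes and are not separate observations. Apob and Tat count again among the C/EBP targets, and Apoa1 and Tat again among the genes that define hepatocytes.

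Among 14 tested C/EBP targets of metabolism, none was past the threshold in limma. At an unadjusted p of 0.05 or less 2 were lower and 4 higher, against 7.11% and 12% of all tested genes. The urea cycle gene Otc was at -0.62 with groups that did not overlap (limma adjusted p = 0.0525), and Gys2 (liver glycogen synthase), Adh1 (alcohol dehydrogenase) and Bdh1 (ketone metabolism) were at 0.51, 0.44 and 0.43. Of 14 acute phase genes known as C/EBP-beta targets, 12 were higher and 2 lower, with a median of 0.35, while 46.9% of all tested genes were lower. Again none was past the threshold in limma. At an unadjusted p of 0.05 or less 4 were higher and 0 lower, against 12% and 7.11% of all tested genes. These counts describe the list and are not a test of it. Lcn2, an iron-sequestering protein of inflammation, read 8.55, 8.88 and 8.29 in control mice and 13.42, 10.40 and 12.40 in TCE mice (log2 fold change 3.50, SE 0.72, limma adjusted p = 0.0752). Saa2 (serum amyloid A), Hp (haptoglobin) and Hpx (hemopexin) were at 1.72, 0.42 and 0.38 at an unadjusted p of 0.05 or less. The groups of Saa2 overlapped, with TCE mouse 2 at 15.07 and control mouse 2 at 15.35. Its near-identical relative Saa1 was at 1.22, also with overlapping groups (limma adjusted p = 0.601), and the Saa2 probe may read both.

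Among 10 tested targets of HNF6, PROX1 and GATA4, 5 were lower and 5 higher. This list includes Foxa2 and Cebpb, so it reuses values of the 8 factors, and the 1 past the threshold was Foxa2 itself. Cyp7a1, the rate-limiting enzyme of bile acid synthesis, read 9.36, 8.20 and 10.14 in control mice and 7.66, 5.75 and 6.79 in TCE mice. Its groups did not overlap, and its log2 fold change was -2.50 ± 0.63 (SE, limma adjusted p = 0.118). Cyp8b1, which directs bile acid synthesis to cholic acid, was at -0.80 (limma adjusted p = 0.170). Without the 8 factors, the lists of partners, targets and hepatocyte identity genes held 73 tested genes, each counted once. Of these, 2 were past the threshold. At an unadjusted p of 0.05 or less 10 were lower and 13 higher, or 31.5% against 19.1% of all tested genes. The lists were chosen with earlier results of these data known, so these shares describe them and are not a test.

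**Figure D4:**
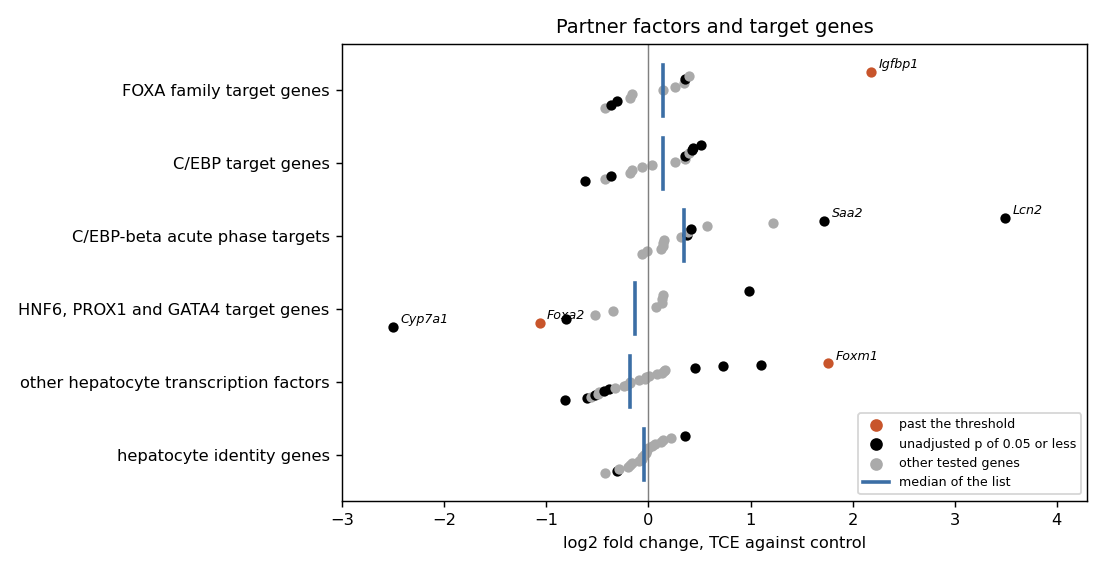
Each point is 1 tested gene of a list of partner factors, targets or identity genes, placed by its log2 fold change, TCE against control (bars, list medians). Igfbp1, Foxm1 and Foxa2 were past the threshold, and list medians lay between -0.18 and 0.35.

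The liver label was checked with 19 tested genes that define hepatocytes, such as albumin and transthyretin. None was past the threshold in limma, 1 was lower (Apoa1) and 1 higher (Tat) at an unadjusted p of 0.05 or less, and their median log2 fold change was -0.04, with Alb at 18.69 in controls and 18.51 in TCE mice and Ttr at 17.70 and 17.84. Their summed normalized signal was 3230380 to 3333500 in control mice and 3164350 to 3344020 in TCE mice, so the ranges overlapped. Quantile normalization gives every array the same set of values. Alb and other genes of this list are near the top of that set, so their sum could hardly differ between groups.

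Markers of other liver cells were read beside the factors that these cells also express. All 10 markers of sinusoidal endothelium, where Gata4 is known to act, were lower, and none at an unadjusted p of 0.05 or less, with a median of -0.23. Their summed signal was 29607 to 30667 in control mice, 16489 in TCE mouse 1, and 30789 and 30478 in TCE mice 2 and 3. For 2 of the 10 markers, Stab1 and Stab2, every TCE mouse was below all controls, as in 10.8% of all tested genes. For the rest of these markers the groups overlapped. Of the bile duct markers, beside which Onecut1 is read, 4 of 10 were tested with none at an unadjusted p of 0.05 or less, and Cldn4, Epcam and Muc1 were above background on no array. Lymphatic markers, beside which Prox1 is read, had 3 tested and none at that p, with a summed signal of 510 to 937 in control and 475 to 741 in TCE mice.

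Of 9 tested stellate cell markers, 4 were lower and 5 higher with a median of 0.0038, and the 1 at an unadjusted p of 0.05 or less was Lrat, at -1.35 (limma adjusted p = 0.0676). In the other marker lists, S100a8 of neutrophils at 1.19 (limma adjusted p = 0.0886) and the 10 Kupffer cell genes had 9 lower, none at an unadjusted p of 0.05 or less. The neutrophil genes Cxcr2, Mpo and Retnlg were above background on no array. In the pancreas and gut list Lgals4 rose by 1.57 (limma adjusted p = 0.0296), Fabp2 was at 0.54, and the pancreatic genes Cela2a, Cpa1, Pnlip and Reg1 were above background on no array. Vil1 of that list and Cnn1 of smooth muscle were not well above background on any TCE array, where they were at least 1.47-fold and 1.71-fold lower. The limma fit used their measured signals and not these bounds (limma adjusted p = 0.0419 and 0.114). The call of Lgals4 was lost without any 1 control mouse or TCE mouse 1 (adjusted p up to 0.126), and that of Vil1 without any 1 mouse other than control mouse 1 (adjusted p up to 0.133). The part of these cells in the values of the 8 factors was not tested.

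Probes within 100 kb of the leading probes were compared as well, since position was not used to choose the genes. There were 40 such probes, 25 of them tested, with 12 lower, 13 higher and a median log2 fold change of 0.02. None was past the threshold in limma, against 1.41% of all tested probes, and 5 were at an unadjusted p of 0.05 or less, against 17.9%. Both tested probes near Foxa2 were among these. One was for 9030622O22Rik, a long noncoding RNA gene on the same strand, 70.1 kb from the Foxa2 probe, which read 8.39, 8.04 and 8.58 in control mice and 7.81, 7.54 and 7.58 in TCE mice. Its groups did not overlap, as with Foxa2, and its log2 fold change was -0.69 ± 0.17 (SE, limma adjusted p = 0.114). The other probe has no gene symbol, lies 54.1 kb away on the same strand, and was at -0.59 (limma adjusted p = 0.198). Both probes lie on the same side of Foxa2, and whether they read 1 transcript was not tested.

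Near Gata4, Fdft1 (squalene synthase) was at -0.62 (limma adjusted p = 0.120) and Ctsb (cathepsin B) at 0.28 (limma adjusted p = 0.264). Near Foxa1, Mipol1 was at 0.60 (limma adjusted p = 0.254). No probe near Foxa3, Cebpa or Cebpb was at an unadjusted p of 0.05 or less, and there was no tested probe near Onecut1 or Prox1. An untested probe near Onecut1 has no gene symbol but is described as Onecut1 itself, and was above background on no array.

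**Figure D5:**
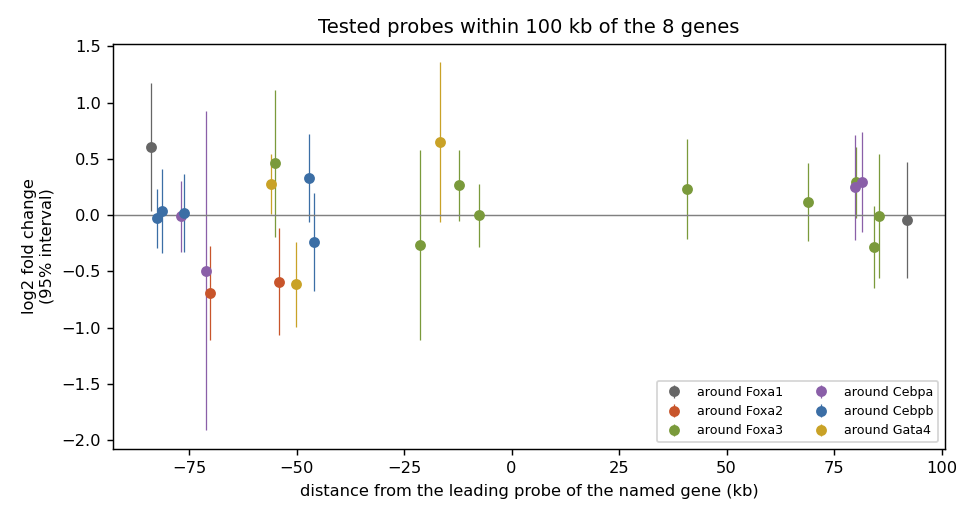
Points are the 25 tested probes within 100 kb, with distance from the leading probe of the named gene in kb on the horizontal axis (negative, lower coordinate) and log2 fold change with its 95% interval on the vertical axis. Both probes near Foxa2 were below 0, at -0.69 and -0.59.

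The pattern of each factor over the 6 mice was set against all other tested probes (22729 for Foxa2 and Onecut1, 22730 for the rest) by Pearson correlation, as a description in which both groups are pooled. Nearest to Foxa2 were Gstp1, a glutathione transferase, and Lrrk1, a kinase, both at r = 0.995, and they had log2 fold changes of -0.64 and -0.46. Nearest to Cebpb were Zdhhc17 at 0.999 and Map7d1 at 0.995. For Onecut1, whose signal varied most among the control mice, the nearest were Nol12 at 0.995 and Fbxo10 at 0.994, with log2 fold changes of only -0.06 and -0.18. The nearest genes were Cct7 (0.988) and Rbm47 (0.987) for Foxa1, Irak1bp1 (0.996) and BC037032 (0.993) for Foxa3, Prpf40b (0.989) and Sec62 (0.987) for Cebpa, Parva (0.995) and Rdx (0.994) for Prox1, and Cetn2 and Trim21 (both 0.994) for Gata4. Among this many probes and 6 mice, correlations of this size were found for each of the 8 factors.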

How the data were processed

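Liver RNA of 3 control and 3 TCE mice was measured on 1-colour Agilent arrays, 1 per mouse. The authors extracted the scans with Agilent Feature Extraction 10.7.1.1, and the deposited scanner output gives an intensity per spot after background subtraction. The authors also deposited a table with group means of quantile-normalized log2 values, and 99.99% of group means computed here were within 0.01 of them.

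Control spots and 123 to 189 outlier spots per array were dropped. Intensities were converted to log2 without a pseudocount, averaged per probe and quantile normalized between arrays. A two-sided limma fit (version 3.58.1, R 4.3.3, data.table version 1.17.8, statmod 1.5.0) with group as the only factor and Benjamini-Hochberg adjustment covered the 22731 probes detected in every array of at least 1 group, that is, with most of their spots well above background. The gene stands by its brightest tested probe. The number of arrays limits the precision. On simulated data with 200 of 22724 probes changed by 2 on the log2 scale, 82.5% were recovered with 4.4 false calls per draw. Every factor examined had a log2 fold change smaller in size than this, from -1.68 for Onecut1 and -1.07 for Foxa2 to -0.42 for Cebpa. Recovery of changes of such sizes was not tested, so the simulated share does not apply to the factors that missed the threshold.

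Relatives were compared with the exact permutation test. The members and lists were chosen with earlier results of these data known. Named were all 8 factors, up to 4 genes per list by size among those past the threshold or at an unadjusted p of 0.05 or less, neighbours at that p, and the 2 genes most like each factor. Hnf4a, Alb, Ttr and Saa1 fall outside this rule and were added after their values were seen. Alternatives covered background correction, scaling, filters, blocks, weights, the methods' t-test and leaving out each mouse. Probe positions are on mm9.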

Additional observations from a re-analysis of the deposited data

How the results depend on the processing

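Of 23 alternative settings, 7 could not change a fold and 3 (slide block, within slide 2, without control mouse 1) gave the same fit. In the 14 distinct sets of fold changes left, all 8 factors kept their sign. The call of Foxa2 was less stable than its size: it was -0.80 with no scaling (limma adjusted p = 0.179), -1.07 with no filter on dim probes (0.113), with the replicate number as a block (0.147) and with the methods' t-test after Benjamini-Hochberg (0.102), and -1.16 with the slide as a block or within slide 2 (0.0704). In each of these, and without any 1 mouse (-1.16 to -0.95), 0 of the 8 factors were past the threshold, against 1 in the main setting. The second Foxa2 probe also missed it with 75th percentile scaling, at -1.09 (limma adjusted p = 0.0535). With no scaling, 2 factors were at an unadjusted p of 0.05 or less, against 5, and the median of the 8 was -0.28, but the median of all probes then moved to 0.25 and the 8 factors lay 0.53 below it (-0.53 relative to all probes, against -0.55). Over all probes, 321 were past the threshold, 96 with no filter, 63 with the replicate block, 177 with the slide block or within slide 2, 594 with the methods' t-test unadjusted and 35 after Benjamini-Hochberg, and 126 to 272 without 1 mouse. Of these calls 72.9% were higher in TCE mice, and 87.6% with no scaling. The listed genes past the threshold numbered 3 in the main setting and 0 without control mouse 1, 2 or 3 or TCE mouse 3. Foxa1 minus Foxa3 was -0.47 to 0.26 without 1 mouse, with the sign turned without control mouse 3. The setting without a filter tests more probes and the settings without a mouse have fewer mice. For the other settings the cause was not tested. Same-numbered mice did not deviate together (r = 0.0897, 0.00658 and -0.0916). These values showed no pairing by number, though 3 mice per group cannot exclude it.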
